A study of Mus musculus with 10 samples.

Results

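The 10 genes described here encode chaperones, folding enzymes and degradation factors of the endoplasmic reticulum (ER) together with XBP1, a transcription factor that switches on many of them. They were picked by name (Hspa5, Dnajb9, Xbp1, Herpud1, Sdf2l1, Hsp90b1, Pdia4, Calr, Edem1 and Creld2), and all 10 were found among the 16290 genes of the deposited table. All 10 also passed the filter on low values, and none had fewer than 336 recovered reads in any library. Levels come from 10 libraries of FVB mouse mammary epithelial cells: NIC-Prmt1 (3 libraries), NIC-Carm1 (3), NIC-Prmt6 (2) and NIC (2). In the first 3 groups the name of an arginine methyltransferase gene is added to NIC, and the series' design text speaks of Prmt overexpression. The NIC genotype is therefore shared by every library, the NIC libraries included. The labels do not spell out NIC, name no promoter for the transgenes and give no age. Cells were freed from dissected glands by enzymes and short spins, the labels name no sort, and whether each library came from a separate animal is not given in the sources used here. The p-values therefore measure the spread between these libraries, which may be technical.

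The ER is where secreted and membrane proteins are folded, and when unfolded proteins build up there a signalling programme called the unfolded protein response is turned on. Its sensors are IRE1, PERK and ATF6. IRE1 splices Xbp1 mRNA so that it encodes an active transcription factor, ATF6 is cut to release one, and PERK slows translation and favours ATF4. Chaperones are induced to fold the load, and degradation factors clear what cannot be folded. In secretory cells, milk-producing mammary cells and plasma cells among them, XBP1 is needed for a large ER. Counts per gene do not separate spliced from unspliced Xbp1 mRNA, so the activity of IRE1 was not measured here.

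The classic control element of these genes is the ER stress response element, ERSE, which is CCAAT, then 9 bases of any kind, then CCACG. A shorter form, ERSE-II, is ATTGG, then 1 base of any kind, then CCACG. The RefSeq promoter table (GRCm38.p6) held a window for each of the 10 genes, 250 bases before to 50 after the start, and both strands were searched. An ERSE was matched in Hspa5, Hsp90b1, Calr and Creld2 and an ERSE-II in Herpud1, against 0.119% and 0.0365% of all 32851 promoter windows. Among the 14866 windows of tested genes these shares were 0.135% and 0.0605%. The matches are shown because 5 of the genes held an ERSE or an ERSE-II. They are read in the direction of the element, with the fixed letters in capitals. Positions count from the RefSeq start. GENCODE M21 puts the start of Hspa5 further upstream, at 34771970, so its match lies within the gene's span in that annotation. It also puts the start of Dnajb9 further upstream, at 44210326. The 250 bases before the RefSeq start of Dnajb9 (44210069 to 44210318) thus lie within that span. Bases before the GENCODE start of Dnajb9 were not searched.
Hspa5, chr2:34772025-34772043, bases -65 to -47 from the start, plus strand: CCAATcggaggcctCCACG
Hsp90b1, chr10:86705638-86705656, bases -212 to -194 from the start, minus strand: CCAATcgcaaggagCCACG
Hsp90b1, chr10:86705533-86705551, bases -107 to -89 from the start, opposite to the minus strand of the gene: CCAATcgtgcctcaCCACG
Calr, chr8:84847075-84847093, bases -162 to -144 from the start, opposite to the minus strand of the gene: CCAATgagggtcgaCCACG
Creld2, chr15:88819520-88819538, bases -126 to -108 from the start, opposite to the plus strand of the gene: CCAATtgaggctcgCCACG
Herpud1, chr8:94386377-94386387, bases -52 to -42 from the start, plus strand, an ERSE-II: ATTGGgCCACG

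Xbp1, the gene that differed most between the groups, had none of these elements in its window, which also held no CCAAT and no CCACG, while the windows of the other 9 genes held both of these short forms (CCAAT was in 37.4% of all windows and CCACG in 32.8%). The core of the element bound by XBP1, TGACGTGG, was matched in 0 of the 10 windows and in 0.676% of all windows. Among the windows of tested genes these shares were 36.9% for CCAAT, 44.5% for CCACG and 0.854% for TGACGTGG. A letter match is not a bound site, and a missing match says only that these letters are not in the window. The 250 bases before the start of Herpud1 and Xbp1 are printed to set a promoter with a match beside one with none, since these 2 genes had alike levels across the libraries, with the ERSE-II in capitals.
Herpud1, chr8:94386179-94386428, plus strand: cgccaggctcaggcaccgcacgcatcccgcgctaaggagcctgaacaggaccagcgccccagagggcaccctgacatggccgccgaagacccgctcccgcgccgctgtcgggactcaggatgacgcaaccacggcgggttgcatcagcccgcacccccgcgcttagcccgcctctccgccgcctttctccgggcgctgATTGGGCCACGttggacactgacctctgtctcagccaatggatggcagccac
Xbp1, chr11:5520391-5520640, plus strand: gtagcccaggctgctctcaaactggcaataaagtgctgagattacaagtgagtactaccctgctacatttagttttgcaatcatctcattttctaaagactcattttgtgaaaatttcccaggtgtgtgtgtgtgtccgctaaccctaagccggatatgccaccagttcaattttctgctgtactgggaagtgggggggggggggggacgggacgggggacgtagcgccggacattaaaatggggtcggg

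The libraries held between 21589274 and 30260921 reads, so counting error is small for all 10 genes. The 2 libraries of NIC-Prmt6, and replicates 2 and 3 of NIC-Carm1, were nearly identical: a chi-square of their reads over its degrees of freedom was 2.44 and 2.69, against 28.0 to 105 for the other 6 pairs within a group. That is above counting noise but far below the other pairs, and whether each pair is 1 sample split in 2 is not given. Each entered the main fit as its own library. If a pair is 1 sample, the shared spread is too small and the p-values are too low. Calls that end once each near-identical pair is averaged are given as such. NIC-Carm1 replicate 1 stood apart from the other 2 NIC-Carm1 libraries, with a summed level of 9 milk genes of 1060054 normalised reads against 167448 and 170827. Luminal, basal, fibroblast, endothelial and macrophage markers were all detected in every library. Of the methyltransferase genes themselves, Prmt6 stood at 873 and 909 normalised reads in NIC-Prmt6, against 387 and 451 in NIC, and Carm1 at 2479, 2324 and 2146 in NIC-Carm1, against 1556 and 1567 in NIC. Carm1 was about as high in NIC-Prmt1 (2025 to 2303) and NIC-Prmt6 (2295 and 2432). Prmt1 stood at 2963, 2702 and 3258 in NIC-Prmt1 and at 2675 and 3077 in NIC, which overlap. Whether a transgene's reads would fall under its mouse gene in this table is not stated in the labels, and the groups are called by their labels.

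**Figure D1:**
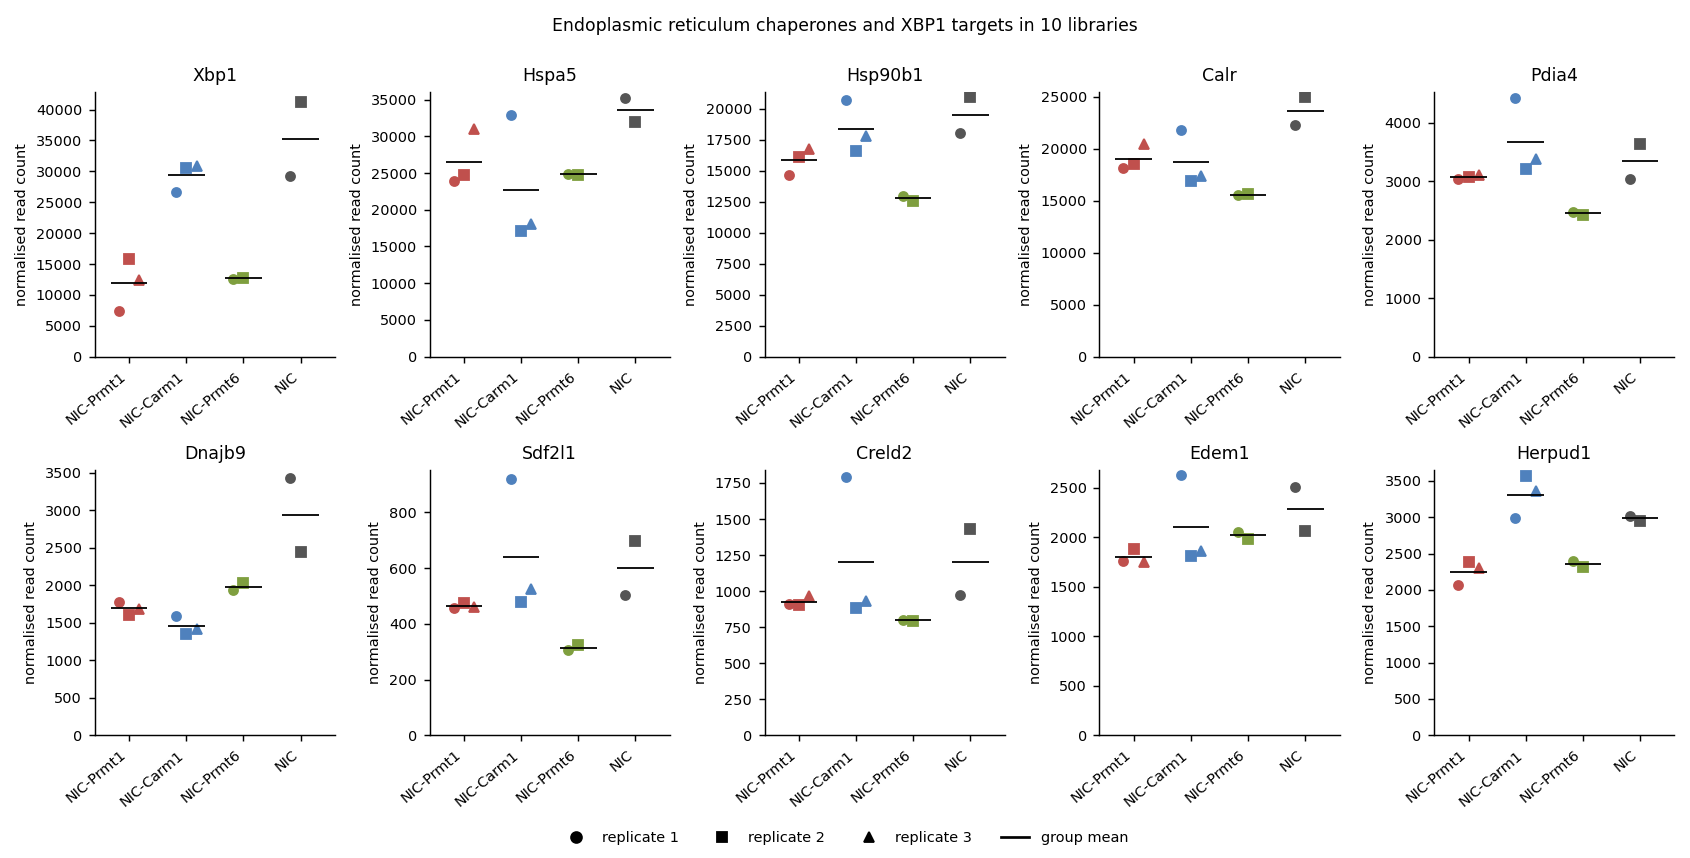
Normalised read count (vertical axis, from 0) of each of the 10 genes in each library, by genotype; symbols are replicates and bars are group means. Xbp1 reaches at most 15758 among NIC-Prmt1 and NIC-Prmt6 and is at least 26641 among NIC-Carm1 and NIC libraries, while NIC-Carm1 replicate 1 is the highest library for Pdia4, Sdf2l1, Creld2 and Edem1.

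Per length, the 10 genes covered a wide range of levels. Divided by the length of their merged exons (GENCODE M21, GRCm38), Xbp1, Calr and Hspa5 averaged 6762, 6651 and 6255 normalised reads per kilobase over all libraries, and Hsp90b1 followed at 4146. Pdia4 and Herpud1 lay at 1325 and 1173, Creld2, Dnajb9 and Sdf2l1 at 760, 756 and 464, and Edem1 at 315. On the same per-kilobase scale Xbp1 led in NIC, at 10853 ± 2591 (SD, n = 2), and in NIC-Carm1, at 9047 ± 734 (SD, n = 3). In NIC-Prmt1 and NIC-Prmt6 Xbp1 averaged 3656 ± 1289 (SD, n = 3) and 3900 ± 7.82 (SD, n = 2), behind Calr, Hspa5 and, in NIC-Prmt1, Hsp90b1.

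Xbp1 (chromosome 11, 5520659 to 5525893, plus strand, protein coding, GRCm38) was the member with the widest range, 5.54-fold between its highest and lowest library. Its normalised read counts were 7442, 15758 and 12423 in NIC-Prmt1, 26641, 30584 and 30930 in NIC-Carm1, 12650 and 12686 in NIC-Prmt6, and 29302 and 41202 in NIC. Every NIC-Prmt1 and NIC-Prmt6 library thus lay below every NIC-Carm1 and NIC library, and the NIC-Carm1 values overlapped those of NIC. Summed endothelial, fibroblast, basal and adipocyte markers split the libraries the same way, in the other direction. The summed level of 9 milk genes split them the same way and in the same direction. These sums are given with their values among the markers. Xbp1 fell in NIC-Prmt1 against NIC, with a log2 fold change of -1.62 ± 0.27 (SE; limma adjusted p = 0.00289), and the call held in all 21 alternatives (adjusted p up to 0.0311). It fell by 1.46 ± 0.29 on the log2 scale in NIC-Prmt6 against NIC (limma adjusted p = 0.00452). That call ended when the near-identical libraries were averaged, at the same log2 fold change of -1.46 and an adjusted p of 0.0567. In NIC-Carm1 against NIC the difference was -0.25 ± 0.27 (limma adjusted p = 0.570), with a 95% interval from -0.84 to 0.35.

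Between the methyltransferase genotypes the same gene differed directly. Xbp1 was lower in NIC-Prmt1 than in NIC-Carm1, by a log2 fold change of -1.37 ± 0.24 (limma adjusted p = 0.00422; adjusted p up to 0.0386 over the 21 alternatives). It was higher in NIC-Carm1 than in NIC-Prmt6, by 1.21 ± 0.27 (limma adjusted p = 0.00651). This second call ended on averaging (adjusted p = 0.108) and without NIC-Prmt6 replicate 1. NIC-Prmt1 and NIC-Prmt6 were not shown to differ, at -0.16 ± 0.27 (limma adjusted p = 0.746), with a 95% interval from -0.76 to 0.44.

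Xbp1 is strongly expressed in luminal cells, and markers of those and of other cells differed between the groups. Of 9 luminal genes, 2 rose and 4 fell in NIC-Prmt1 against NIC, 0 rose and 5 fell in NIC-Carm1, and 0 rose and 6 fell in NIC-Prmt6. The 2 rises are 22.2% of the list, where 15.2% of all genes were called higher. The falls are 44.4%, 55.6% and 66.7%, where 14.4%, 9.36% and 17.8% of all genes were called lower. Epcam, an epithelial adhesion gene, fell in NIC-Prmt1 to 17215, 24260 and 25941 normalised reads, against 47439 and 50031 in NIC, with a log2 fold change of -1.14 ± 0.16 (limma adjusted p = 0.00153). The keratin gene Krt19 and the transcription factor gene Elf3 went the other way in NIC-Prmt1, at 0.60 ± 0.14 and 0.58 ± 0.19 (limma adjusted p = 0.0127 and 0.0401). With averaging, the luminal counts were 0 higher and 2 lower in NIC-Prmt1, 0 in NIC-Carm1 and 2 lower in NIC-Prmt6; without NIC replicate 2 those in NIC-Prmt1 were 0 higher and 2 lower, and without NIC replicate 1 the 5 in NIC-Carm1 became 2. The summed level of 9 luminal genes ranged from 165174 to 241131 normalised reads in NIC-Prmt1, from 145832 to 181965 in NIC-Carm1, from 157036 to 158849 in NIC-Prmt6 and from 268855 to 319845 in NIC. Krt8 and Krt18 were the highest genes of this sum in every library. NIC was the highest group, and the luminal sum of NIC-Carm1 overlapped that of NIC-Prmt6 while its Xbp1 level overlapped that of NIC. Per 1000 luminal marker reads, Xbp1 stood at 45.1, 78.1 and 51.5 in NIC-Prmt1, at 146, 210 and 207 in NIC-Carm1, at 80.6 and 79.9 in NIC-Prmt6, and at 91.6 and 153 in NIC. On that scale too every NIC-Prmt1 and NIC-Prmt6 library was below both NIC libraries, though NIC-Prmt6 only narrowly below NIC replicate 1. Herpud1 on the same scale stood at 12.5, 11.8 and 9.53 in NIC-Prmt1, 16.4, 24.5 and 22.6 in NIC-Carm1, 15.3 and 14.6 in NIC-Prmt6, and 9.45 and 10.95 in NIC, so that no group lay below NIC. Dnajb9 stood at 10.8, 7.94 and 6.999 in NIC-Prmt1, 8.75, 9.29 and 9.54 in NIC-Carm1, 12.3 and 12.8 in NIC-Prmt6, and 10.7 and 9.08 in NIC, with no group below NIC either. On this scale every NIC-Carm1 and NIC-Prmt6 library was above both NIC libraries for Herpud1, as was every NIC-Prmt6 library for Dnajb9. These ratios were chosen after the values had been seen, and the part of the luminal cells in the results was not tested. In bulk samples, fewer cells of a type and less RNA per cell cannot be told apart. Plasma cells also make much XBP1. Of the 8 plasma and B cell genes Sdc1, which epithelial cells also express, held most of the summed level, at 5291, 3927 and 5080 normalised reads in NIC-Prmt1, 2843, 3081 and 2933 in NIC-Carm1, 5885 and 5799 in NIC-Prmt6, and 3064 and 3089 in NIC. The other 7 genes summed to 127, 1284 and 163 in NIC-Prmt1, 518, 753 and 770 in NIC-Carm1, 423 and 472 in NIC-Prmt6, and 935 and 117 in NIC, so the groups overlapped and single libraries were high. Tnfrsf17, a defining plasma cell gene, had at most 11.6 normalised reads in any library and was at 0 in NIC replicate 2. The Jchain rise in NIC-Carm1 was not called by edgeR and ended on averaging. Of the 7 genes tested (all but Tnfrsf17), 1, 1 and 2 rose in NIC-Prmt1, NIC-Carm1 and NIC-Prmt6 by limma, and 0 fell. The rises are 14.3%, 14.3% and 28.6%, where 15.2%, 6.65% and 19.0% of all genes were called higher. The part of plasma cells in the Xbp1 level was not tested.

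Summed markers of milk-producing and other cells did follow the split of Xbp1 and Herpud1, the milk sum in the same direction. The summed level of 9 milk genes was 66796 to 126613 normalised reads in NIC-Prmt1 and 45753 to 46071 in NIC-Prmt6. It was 167448 to 1060054 in NIC-Carm1 and 185647 to 190152 in NIC. Gene by gene, Csn3 and Xdh alone of the 9 split the libraries in this way. Csn3 held 118315 and 121756 normalised reads of the sums in NIC. Among the genes without the split, Csn2 reached 7260 in NIC-Prmt1, against 4732 and 2452 in NIC. By limma 2 of the 9 fell in NIC-Prmt1, 0 in NIC-Carm1 and 4 in NIC-Prmt6, and 0 rose. The falls are 22.2%, 0% and 44.4%, where 14.4%, 9.36% and 17.8% of all genes were called lower. The 4 milk genes lower in NIC-Prmt6 became 2 by edgeR, 3 by DESeq2 and 8 with the 2 groups alone. That count was also lower on averaging and without either library of NIC or of NIC-Prmt6. The summed level of 5 endothelial genes was 32701 to 45956 normalised reads in NIC-Prmt1, 19345 to 20665 in NIC-Carm1, 46380 to 46504 in NIC-Prmt6 and 20211 to 24368 in NIC. That of 6 fibroblast genes was 112274 to 155494 in NIC-Prmt1, 76201 to 94269 in NIC-Carm1, 283365 to 283623 in NIC-Prmt6 and 78319 to 97884 in NIC. Every NIC-Prmt1 and NIC-Prmt6 library was above every NIC-Carm1 and NIC library in the endothelial and fibroblast sums. The same held for the adipocyte and basal sums given below. All 5 endothelial genes rose in NIC-Prmt1 and in NIC-Prmt6 against NIC and 0 were called in NIC-Carm1 by limma. Of the 6 fibroblast genes 4 rose in NIC-Prmt1, 6 in NIC-Prmt6 and 0 in NIC-Carm1. For fibroblasts that is 66.7% and 100% in NIC-Prmt1 and NIC-Prmt6, where 15.2% and 19.0% of all genes were called higher. Without NIC replicate 1 the counts in NIC-Prmt1 were 3 endothelial and 0 fibroblast genes, while in NIC-Prmt6 at least 4 endothelial and all 6 fibroblast genes passed in each alternative. The sum of 5 adipocyte genes, nearly all of it Fabp4, was 15344 to 24692 in NIC-Prmt1, 8209 to 8992 in NIC-Carm1, 28522 to 29137 in NIC-Prmt6 and 6933 to 8389 in NIC; without Fabp4 the other 4 genes summed to 105 to 238, 56.2 to 474, 871 to 881 and 135 to 410 in the same order of groups. Of 8 basal and myoepithelial genes, 7 rose in NIC-Prmt1 (5 on averaging, 4 without NIC replicate 2), with a summed level of 79395 to 144254 there, against 38165 to 45296 in NIC. Those 7 basal genes are 87.5% of the list, where 15.2% of all genes were called higher. The sum of 7 macrophage genes was 8893 to 16127 in NIC-Prmt1 and 18001 to 20756 in NIC-Carm1. It was 20214 to 20825 in NIC-Prmt6 and 11410 to 12961 in NIC, so it did not follow Xbp1. Of these, 2, 2 and 5 rose in NIC-Prmt1, NIC-Carm1 and NIC-Prmt6, and 0 fell. The rises are 28.6%, 28.6% and 71.4%, where 15.2%, 6.65% and 19.0% of all genes rose. Averaging lowered the macrophage counts in NIC-Carm1 and NIC-Prmt6. Without NIC-Prmt1 replicate 1 these counts were higher, at 4 and 6. The count in NIC-Prmt6 was also lower without NIC replicate 2 or either NIC-Prmt6 library. The part of any of these cells in the levels of the ER genes was not tested.

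**Figure D2:**
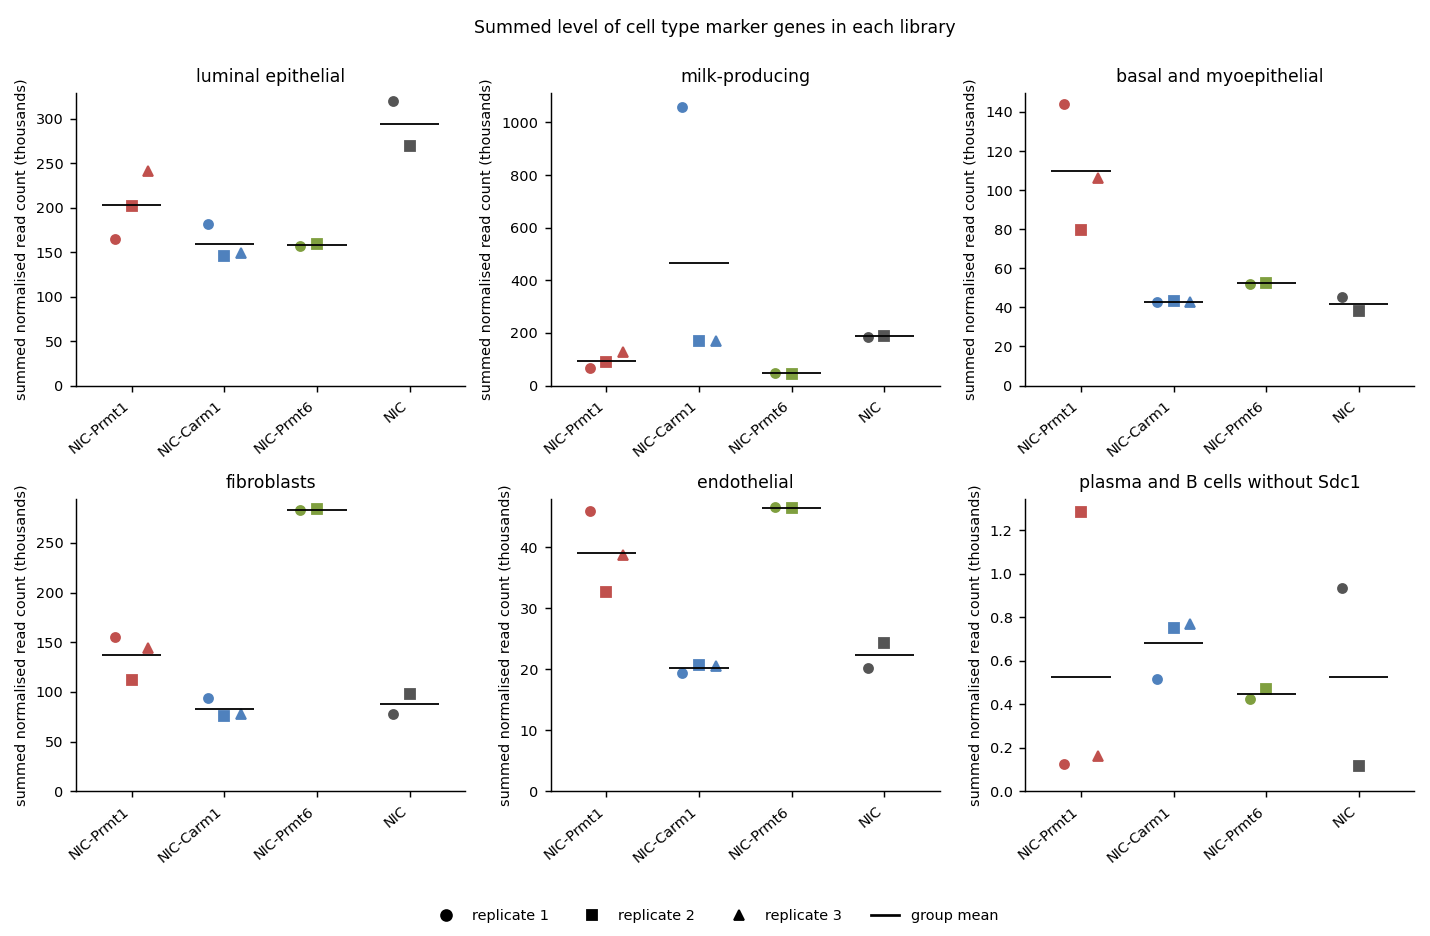
Summed normalised read count (vertical axis from 0, in units of 1000) of marker genes of 6 cell types in each library, by genotype; symbols are replicates and bars are group means. The luminal sum is highest in NIC, the milk sum is highest in NIC-Carm1 replicate 1 at 1060054, and the fibroblast and endothelial sums are higher in NIC-Prmt1 and NIC-Prmt6 than in NIC-Carm1 and NIC. The 7 plasma and B cell genes other than Sdc1 overlap between the groups, from 117 to 1284.

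Dnajb9, which encodes the J-domain partner ERdj4 that regulates the chaperone BiP, was the only one of the 10 genes called in all 3 comparisons with NIC. It lies on chromosome 12 (44205559 to 44210326, minus strand). Its normalised read counts were 1779, 1603 and 1688 in NIC-Prmt1, 1592, 1355 and 1423 in NIC-Carm1, 1936 and 2028 in NIC-Prmt6, and 3428 and 2442 in NIC. Both NIC libraries were above every other library, and they differed from each other by more than the libraries within any other genotype did. Dnajb9 fell, with log2 fold changes of -0.78 ± 0.14 in NIC-Prmt1 (limma adjusted p = 0.00373) and -0.99 ± 0.14 in NIC-Carm1 (limma adjusted p = 0.00235), and both calls held in all 21 alternatives (adjusted p up to 0.0245 and 0.0382). In NIC-Prmt6 it fell by 0.55 ± 0.15 (limma adjusted p = 0.0177). That call ended on averaging (adjusted p = 0.122) and without NIC replicate 1 or either NIC-Prmt6 library. Dnajb9 was also lower in NIC-Carm1 than in NIC-Prmt6, by -0.45 ± 0.14 (limma adjusted p = 0.0266), where Xbp1 differed the other way. Averaging ended that call too (adjusted p = 0.235), as did leaving out replicate 2 or 3 of NIC-Carm1 or either NIC-Prmt6 library.

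Herpud1, whose product HERP helps to assemble the complex that pulls misfolded proteins out of the ER, had levels more like those of Xbp1 (Pearson's r = 0.91 over the 10 libraries) than those of Dnajb9 (r = -0.09). On chromosome 8 (94386438 to 94395377, plus strand), it had normalised read counts of 2068, 2383 and 2297 in NIC-Prmt1, 2990, 3570 and 3364 in NIC-Carm1, 2401 and 2319 in NIC-Prmt6, and 3022 and 2945 in NIC. No NIC-Prmt1 or NIC-Prmt6 value exceeded 2401, and no NIC-Carm1 or NIC value was under 2945. Herpud1 fell by 0.41 ± 0.10 on the log2 scale in NIC-Prmt1 against NIC (limma adjusted p = 0.0138), a call that ended without either NIC library (adjusted p up to 0.0702). It fell by 0.34 ± 0.11 in NIC-Prmt6 against NIC (limma adjusted p = 0.0340), and averaging ended that call (adjusted p = 0.186), as did 5 of the 10 libraries when left out singly: both of NIC, both of NIC-Prmt6 and NIC-Carm1 replicate 3. Against NIC-Carm1, Herpud1 was lower in NIC-Prmt1 by -0.56 ± 0.09 (limma adjusted p = 0.00312), which held in all 21 alternatives. It was higher in NIC-Carm1 than in NIC-Prmt6 by 0.48 ± 0.10 (limma adjusted p = 0.00462; adjusted p = 0.112 on averaging, and the call also ended without NIC-Prmt6 replicate 2).

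Of the abundant ER chaperones, Hsp90b1 and Calr fell in NIC-Prmt6 and Hspa5 passed in no comparison. Hspa5 encodes BiP, the Hsp70 of the ER that binds unfolded chains and keeps the sensors silent (chromosome 2, 34771970 to 34777547, plus strand). Its normalised read counts were 23959, 24793 and 30929 in NIC-Prmt1, 32923, 17144 and 18069 in NIC-Carm1, 24820 and 24786 in NIC-Prmt6, and 35167 and 31936 in NIC. All NIC-Prmt1 and NIC-Prmt6 libraries were below both NIC libraries, and within NIC-Carm1 replicate 1 sat inside the NIC range while replicates 2 and 3 were the lowest of all 10 libraries. With that split, none of the 3 differences from NIC passed: -0.34 ± 0.25 in NIC-Prmt1, -0.63 ± 0.25 in NIC-Carm1 and -0.43 ± 0.27 in NIC-Prmt6 (limma adjusted p = 0.317, 0.115 and 0.238). Without NIC-Carm1 replicate 1 the estimate in NIC-Carm1 became -0.93 (limma adjusted p = 0.00310) and that in NIC-Prmt6 stayed at -0.43 with an adjusted p of 0.0351. Without that library Hspa5 also passed in NIC-Prmt1 against NIC-Carm1 and in NIC-Carm1 against NIC-Prmt6 (limma adjusted p = 0.0128 and 0.0222), lowest in NIC-Carm1.

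Hsp90b1, the gene of the ER Hsp90 called GRP94, and Calr, the gene of the glycoprotein chaperone calreticulin, had narrower spreads. Hsp90b1 (chromosome 10, 86690209 to 86705509, minus strand) stood at 14641, 16099 and 16769 normalised reads in NIC-Prmt1, 20711, 16557 and 17819 in NIC-Carm1, 12995 and 12557 in NIC-Prmt6, and 18068 and 20962 in NIC. NIC-Prmt6 was the lowest group and did not overlap any other. Hsp90b1 fell by 0.61 ± 0.14 on the log2 scale in NIC-Prmt6 against NIC (limma adjusted p = 0.00760; adjusted p = 0.0867 on averaging) and was higher in NIC-Carm1 than in NIC-Prmt6 by 0.52 ± 0.13 (limma adjusted p = 0.00985; adjusted p = 0.118 on averaging). The call against NIC also ended without NIC replicate 2 or NIC-Prmt6 replicate 2, and the call against NIC-Carm1 without either NIC-Prmt6 library. Its exons share 415 bases with 1810014B01Rik on the other strand, and the strand setting of the counting is not given, so reads there cannot be told apart; that gene held 23.6 to 72.4 normalised reads. Calr (chromosome 8, 84841850 to 84846934, minus strand) stood at 18109, 18538 and 20418 in NIC-Prmt1, 21819, 16928 and 17328 in NIC-Carm1, 15507 and 15610 in NIC-Prmt6, and 22292 and 25001 in NIC. Both NIC libraries exceeded all others. Calr fell by 0.60 ± 0.14 in NIC-Prmt6 against NIC (limma adjusted p = 0.00990; adjusted p = 0.0993 on averaging; the call also ended without NIC replicate 2 or either NIC-Prmt6 library), while -0.31 ± 0.13 in NIC-Prmt1 and -0.35 ± 0.13 in NIC-Carm1 did not pass (limma adjusted p = 0.0969 and 0.101).

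Pdia4 and Sdf2l1 tracked each other more closely than any other pair, with Pearson's r = 0.98 over the 10 libraries. Pdia4 encodes the disulphide isomerase ERp72 (chromosome 6, 47796141 to 47813430, minus strand), and Sdf2l1 an ER-resident partner of BiP and its J-domain proteins (chromosome 16, 17130138 to 17132383, minus strand). Sdf2l1 had normalised read counts of 456, 473 and 459 in NIC-Prmt1, 920, 478 and 524 in NIC-Carm1, 304 and 325 in NIC-Prmt6, and 503 and 696 in NIC. Pdia4 had 3038, 3066 and 3100 in NIC-Prmt1, 4430, 3206 and 3373 in NIC-Carm1, 2480 and 2428 in NIC-Prmt6, and 3041 and 3634 in NIC. In both genes NIC-Prmt6 was the lowest group and NIC-Carm1 replicate 1 the highest library. Against NIC, Sdf2l1 fell by 0.91 ± 0.27 on the log2 scale in NIC-Prmt6 (limma adjusted p = 0.0258; adjusted p = 0.116 with near-identical libraries averaged). Pdia4 fell there by 0.44 ± 0.15 (limma adjusted p = 0.0414; adjusted p = 0.176 on averaging). Sdf2l1 and Pdia4 were higher in NIC-Carm1 than in NIC-Prmt6, by 0.96 ± 0.25 and 0.57 ± 0.14 (limma adjusted p = 0.0134 and 0.00933), and averaging ended both calls (adjusted p = 0.0823 and 0.0847). Leaving out either NIC-Prmt6 library also ended all 4 of these calls, and NIC replicate 2 those against NIC. The Pdia4 call against NIC further ended without NIC-Prmt1 replicate 2 or 3 or NIC-Carm1 replicate 3.

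Creld2 and Edem1 passed in no comparison with all 10 libraries; without NIC-Carm1 replicate 1, Creld2 was called lower in NIC-Prmt6 and Edem1 lower in NIC-Prmt1, both against NIC (limma adjusted p = 0.0169 and 0.0218). Creld2, an ER protein induced by ER stress (chromosome 15, 88819646 to 88826683, plus strand), stood at 911, 903 and 967 normalised reads in NIC-Prmt1, 1789, 885 and 928 in NIC-Carm1, 801 and 794 in NIC-Prmt6, and 976 and 1431 in NIC. NIC-Carm1 replicate 1 was 1.97 times the mean of the other 2 NIC-Carm1 libraries, the widest such gap of the 10 genes. Edem1, a lectin-like factor that hands misfolded glycoproteins to degradation (chromosome 6, 108828641 to 108859356, plus strand), stood at 1761, 1886 and 1746 in NIC-Prmt1, 2633, 1808 and 1865 in NIC-Carm1, 2052 and 1988 in NIC-Prmt6, and 2509 and 2063 in NIC. Their log2 fold changes against NIC were -0.35 ± 0.27 and -0.34 ± 0.16 in NIC-Prmt1, -0.06 ± 0.27 and -0.14 ± 0.16 in NIC-Carm1, and -0.57 ± 0.30 and -0.17 ± 0.17 in NIC-Prmt6.

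**Figure D3:**
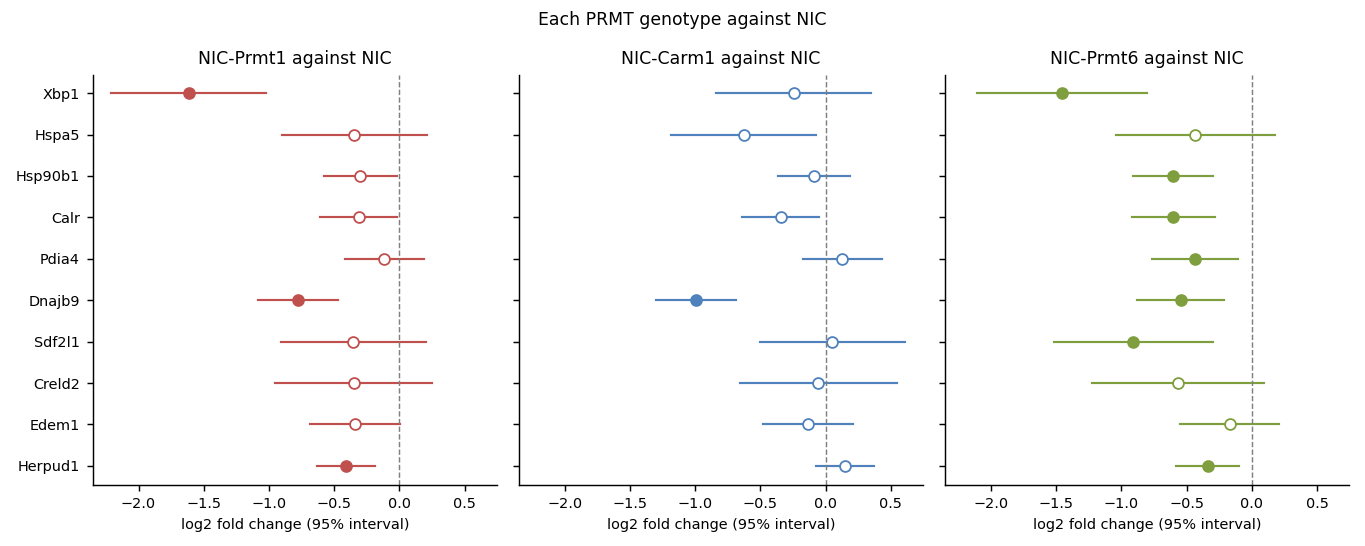
Log2 fold change (horizontal axis) of each of the 10 genes in each methyltransferase genotype against NIC, with 95% intervals from limma that are not adjusted for the number of genes; filled points passed an adjusted p of 0.05. All 10 points lie below 0 in NIC-Prmt1 and in NIC-Prmt6, with 3 and 7 filled, and 7 lie below 0 in NIC-Carm1, with Dnajb9 alone filled.

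Over the set, NIC-Prmt1 against NIC gave 3 genes lower (Dnajb9, Xbp1 and Herpud1) and 0 higher by limma, where 14.4% of all genes tested were called lower and 15.2% higher. At an unadjusted p under 0.05 the counts were 5 lower and 0 higher. No share of all genes is given at that threshold, so counts at it, here and below, have no background beside them. By edgeR and by DESeq2 3 were lower and 0 higher. The median log2 fold change of the 10 was -0.35, against 0.00 over all genes, and in 9 of the 10 every NIC-Prmt1 library was below both NIC libraries, as in 27.1% of all genes (0 of the 10 lay wholly above, as did 28.2% of all genes). The count was 2 without either NIC library. Without NIC-Carm1 replicate 1, which enters the shared estimate of spread, the count became 5, with Calr and Edem1 added.

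NIC-Carm1 against NIC gave 1 gene lower, Dnajb9, and 0 higher by limma, edgeR and DESeq2 alike, where limma called 9.36% of all genes lower and 6.65% higher. The share of the 10 genes called lower was thus close to that of all genes. At an unadjusted p under 0.05 there were 3 lower and 0 higher. The median log2 fold change was -0.11, against 0.00 over all genes, and 2 of the 10 genes, Dnajb9 and Calr, lay wholly below NIC, as did 24.5% of all genes, and the other 8 overlapped. Without NIC-Carm1 replicate 1 the count became 3, with Hspa5 and Calr added.

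NIC-Prmt6 against NIC gave 7 genes lower (Dnajb9, Xbp1, Herpud1, Sdf2l1, Hsp90b1, Pdia4 and Calr) and 0 higher by limma, edgeR and DESeq2 alike, where limma called 17.8% of all genes lower and 19.0% higher. The median was -0.56, against -0.01 over all genes, and in all 10 both NIC-Prmt6 libraries were below both NIC libraries, as in 38.6% of all genes (0 lay wholly above, as did 38.1% of all genes). At an unadjusted p under 0.05 there were also 7 lower and 0 higher. This count rests on the near-identical pair: none of the 7 calls stayed on averaging, where far fewer of all genes were called lower too. It was 2 without NIC-Prmt6 replicate 1, 1 without NIC-Prmt6 replicate 2 and 2 without NIC replicate 2, and 9 without NIC-Carm1 replicate 1. These 3 comparisons share the NIC libraries, so their values are not independent of each other.

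The direct comparisons put NIC-Carm1 above NIC-Prmt6. Of the 10 genes, 5 were higher in NIC-Carm1 (Xbp1, Herpud1, Sdf2l1, Hsp90b1 and Pdia4) and Dnajb9 was lower, where 18.4% of all genes were called higher and 20.9% lower. In 7 genes all NIC-Carm1 libraries were above both NIC-Prmt6 libraries and in 1 all were below, as in 34.6% and 35.2% of all genes. None of these calls stayed with averaging, where far fewer of all genes were called in either direction too. Most of them also ended without NIC-Prmt6 replicate 1 or 2. The Dnajb9 call ended without replicate 2 or 3 of NIC-Carm1 or either NIC-Prmt6 library, and without NIC-Carm1 replicate 1 Hspa5 joined it as lower. The median log2 fold change of the 10 was 0.50, against 0.00 over all genes. NIC-Prmt1 against NIC-Carm1 gave 2 genes lower, Xbp1 and Herpud1, and 0 higher, where 11.8% of all genes were lower and 14.9% higher, and both calls held in each alternative. Without NIC-Carm1 replicate 1, Hspa5 was called higher. Between NIC-Prmt1 and NIC-Prmt6 limma, edgeR and DESeq2 each called 0 of the 10, where limma called 2.54% of all genes higher and 4.94% lower. At an unadjusted p under 0.05 limma gave Sdf2l1, Hsp90b1 and Pdia4 higher in NIC-Prmt1 and 0 lower. In 5 genes all NIC-Prmt1 libraries were above both NIC-Prmt6 libraries and in 2 all were below, as in 22.4% and 26.8% of all genes. Sdf2l1 and Pdia4 passed once NIC-Carm1 replicate 1 was left out (adjusted p = 0.0326 and 0.0434). Of all genes called in this last comparison 34.0% were higher in NIC-Prmt1, and 50.2% after upper-quartile rescaling.

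**Figure D4:**
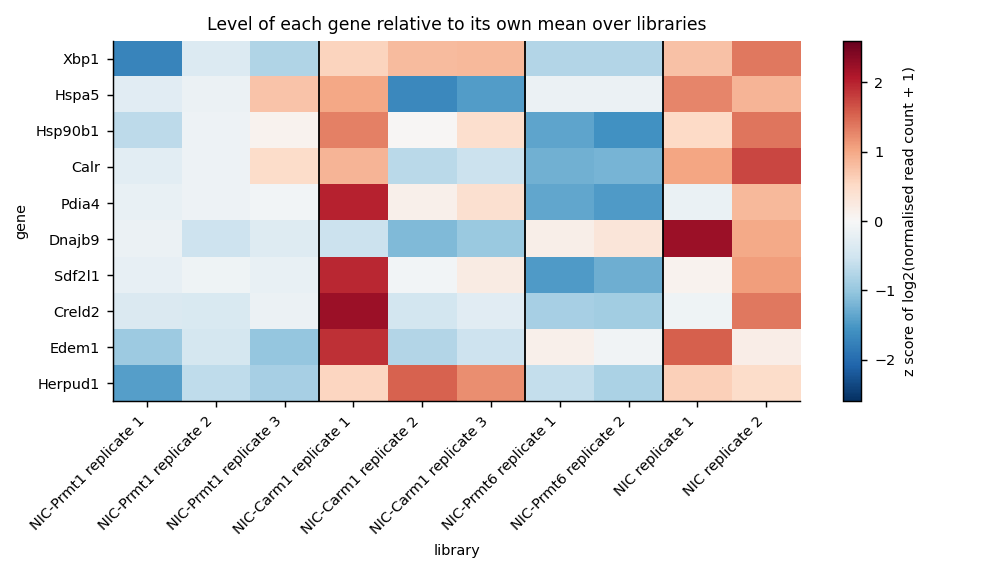
Level of each of the 10 genes (rows) in each library (columns, by genotype) as a z score of log2(normalised read count + 1) against the gene's own mean over the 10 libraries; red is above and blue below that mean. The NIC-Prmt6 columns are blue in most rows, Xbp1 and Herpud1 split NIC-Prmt1 and NIC-Prmt6 from NIC-Carm1 and NIC, and NIC-Carm1 replicate 1 is red in most rows.

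The 10 genes did not form a single pattern. Over the 10 libraries, 41 of their 45 pairs had a Pearson's r above 0, with a median of 0.51. Among the closest pairs were Sdf2l1 with Hsp90b1 (r = 0.93), Sdf2l1 with Creld2 (r = 0.93) and Hsp90b1 with Pdia4 (r = 0.91). The lowest were Hspa5 with Herpud1 (r = -0.27) and Dnajb9 with Pdia4 (r = -0.20). The libraries share genotypes, so these are descriptions only. NIC-Carm1 replicate 1 differed from the other 2 libraries of its group in most genes: it stood at 1.87 times the mean of replicates 2 and 3 for Hspa5, 1.84 times for Sdf2l1, 1.43 times for Edem1 and 1.35 times for Pdia4, but Xbp1 and Herpud1 were lower in it, at 0.87 and 0.86 times. It was also the library with the casein genes Csn1s1, Csn1s2a and Csn2 far above all others. Csn2 stood at 358442 normalised reads there, against at most 7260 in any other library. The casein gene Csn3 differed less, at 156632 there against 121756 in NIC replicate 2. The part of this milk signal in the ER genes was not tested.

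Genes whose level over the 10 libraries was most like the mean z score of the set came from several processes. Prpf19, a splicing factor, had r = 0.98 (Spearman's rho = 0.96), and the lysosomal transporter gene Spns1 had r = 0.98 (rho = 0.96). Sec61b, a subunit of the channel through which new proteins enter the ER, had r = 0.97 (rho = 0.98), and the signal peptidase subunit gene Sec11a had r = 0.97 (rho = 0.98). The next were Sephs2, Eif2b4, Cmpk1 and Cyc1, each with r = 0.97 and rho from 0.89 to 0.95. Sec61b stood at 1062, 1050 and 1266 normalised reads in NIC-Prmt1, 1904, 1122 and 1209 in NIC-Carm1, 985 and 949 in NIC-Prmt6, and 1448 and 1712 in NIC, so it too peaked in NIC-Carm1 replicate 1.

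Upstream of the set, 1 of the 5 sensor genes (20.0%) was called, lower in each comparison with NIC, where 14.4%, 9.36% and 17.8% of all genes were called lower in NIC-Prmt1, NIC-Carm1 and NIC-Prmt6. Eif2ak3, the gene of PERK, stood at 1024, 1040 and 821 normalised reads in NIC-Prmt1, 1555, 1173 and 1052 in NIC-Carm1, 1128 and 1089 in NIC-Prmt6, and 2577 and 1651 in NIC. Every library of the other genotypes lay below both NIC libraries, as for Dnajb9. Eif2ak3 fell, with log2 fold changes of -1.11 ± 0.21 in NIC-Prmt1, -0.73 ± 0.21 in NIC-Carm1 and -0.90 ± 0.23 in NIC-Prmt6 (limma adjusted p = 0.00477, 0.0399 and 0.0127). The call in NIC-Prmt1 held in all 21 alternatives. Those in NIC-Carm1 and NIC-Prmt6 ended on averaging and without NIC replicate 1 or either NIC-Prmt6 library, and that in NIC-Carm1 also without its replicate 2 or 3 and with the 2 groups alone. Ern1, which encodes the IRE1 that splices Xbp1, gave 0.28 ± 0.16, -0.05 ± 0.16 and 0.31 ± 0.18 in the same 3 comparisons, and Atf6 gave -0.15 ± 0.11, -0.19 ± 0.11 and 0.05 ± 0.12 (limma adjusted p from 0.196 to 0.881).

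Among 22 other ER chaperones and folding enzymes the calls went both ways. In NIC-Prmt1 3 rose and 2 fell, in NIC-Carm1 2 rose and 1 fell, and in NIC-Prmt6 4 rose and 6 fell, with list medians of -0.01, 0.07 and -0.20. As shares of the 22, these are 13.6% higher and 9.09% lower in NIC-Prmt1 (15.2% and 14.4% of all genes), 9.09% and 4.55% in NIC-Carm1 (6.65% and 9.36% of all genes), and 18.2% and 27.3% in NIC-Prmt6 (19.0% and 17.8% of all genes). The shares in NIC-Prmt1 and NIC-Carm1 and the rises in NIC-Prmt6 were thus near or below those of all genes. The disulphide isomerase gene Pdia5 rose by 1.52 ± 0.20 in NIC-Prmt1, 0.70 ± 0.20 in NIC-Carm1 and 1.25 ± 0.22 in NIC-Prmt6 (log2). Dnajc3, the gene of the BiP partner p58IPK, rose by 0.48 ± 0.09, 0.47 ± 0.09 and 0.35 ± 0.10. Of these the call in NIC-Prmt1 held in all 21 alternatives, while that in NIC-Carm1 ended on averaging (adjusted p = 0.0838) and without NIC replicate 1, and that in NIC-Prmt6 on averaging (adjusted p = 0.166) and without either library of NIC or of NIC-Prmt6. Fkbp14, a prolyl isomerase gene, rose by 0.76 ± 0.15 in NIC-Prmt6, where averaging ended the call (adjusted p = 0.0591). Ero1l, whose product feeds oxidising power to disulphide isomerases, fell, at -0.80 ± 0.13, -0.51 ± 0.13 and -0.78 ± 0.14. The calls of Pdia5 and Ero1l in NIC-Carm1 ended on averaging and without NIC replicate 1 or replicate 2 or 3 of NIC-Carm1, that of Ero1l also without NIC replicate 2, and that of Pdia5 also without NIC-Prmt1 replicate 3 or either NIC-Prmt6 library (adjusted p up to 0.261 and 0.146), and with averaging the list gave 2 higher and 1 lower in NIC-Prmt1, 0 in NIC-Carm1 (2 higher and 1 lower at an unadjusted p under 0.05) and 1 each way in NIC-Prmt6. The rises in NIC-Prmt6 became 2 without NIC-Prmt6 replicate 2, and the 2 falls in NIC-Prmt1 became 4 without NIC-Carm1 replicate 1 and 1 without any other library but NIC-Prmt1 replicates 2 and 3. The 6 falls in NIC-Prmt6 became 1 without NIC replicate 2 or NIC-Prmt6 replicate 1 and 2 without NIC-Prmt6 replicate 2. Hyou1 and Manf, induced by ER stress like the set, passed in none of the 3 comparisons, at 0.07, 0.13 and -0.20 for Hyou1 and -0.03, -0.03 and -0.36 for Manf.

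Of 18 genes of ER-associated degradation, 2 fell in NIC-Prmt1, 2 in NIC-Carm1 and 6 in NIC-Prmt6, and 0 rose by limma or edgeR. The falls are 11.1% of the list in NIC-Prmt1 and in NIC-Carm1, near the 14.4% and 9.36% of all genes called lower there, and 33.3% in NIC-Prmt6, against 17.8% of all genes. At an unadjusted p under 0.05, 3 were higher in NIC-Carm1 and 0 in the others, and DESeq2 called 1 higher in NIC-Carm1. Derl3, an XBP1 target of secretory cells, had the lowest log2 fold change of the list in NIC-Prmt1 and NIC-Prmt6, at -1.32 ± 0.27 and -1.69 ± 0.30 (limma adjusted p = 0.00725 and 0.00248), and both calls held in all 21 alternatives. Its normalised read counts were 89.1, 200 and 145 in NIC-Prmt1, 412, 365 and 348 in NIC-Carm1, 106 and 106 in NIC-Prmt6, and 352 and 335 in NIC, the same split of the groups as for Xbp1. Ubxn4, which recruits the p97 ATPase to the ER, fell in all 3, at -0.57 ± 0.12, -0.51 ± 0.12 and -0.52 ± 0.13, with no call of the 3 holding without NIC replicate 2. The Ubxn4 calls in NIC-Carm1 and NIC-Prmt6 also ended on averaging. Selk, the gene of an ER membrane selenoprotein, fell by 0.46 ± 0.10 in NIC-Carm1 (limma adjusted p = 0.0151), a call that ended on averaging and without either NIC library or NIC-Carm1 replicate 2. Rnf5, the gene of an ER membrane ubiquitin ligase, fell by 0.90 ± 0.19 in NIC-Prmt6 (limma adjusted p = 0.00545; adjusted p = 0.0628 on averaging). The 2 falls in NIC-Prmt1 became 1 without NIC replicate 2 and 4 without NIC-Prmt1 replicate 2 or NIC-Carm1 replicate 1, and the 2 in NIC-Carm1 became 0 without either NIC library or NIC-Carm1 replicate 2. With averaging the counts of falls were 2, 0 and 1, and that in NIC-Prmt6 was 2 without NIC replicate 2 or either NIC-Prmt6 library.

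Genes of protein entry into the ER and of vesicle transport included more falls than rises in NIC-Prmt1 and NIC-Prmt6. Of 23, 8 fell and 1 rose in NIC-Prmt1, 1 fell and 1 rose in NIC-Carm1, and 11 fell and 1 rose in NIC-Prmt6, with medians of -0.20, -0.14 and -0.31. The falls are 34.8%, 4.35% and 47.8% of the list, where 14.4%, 9.36% and 17.8% of all genes were called lower, and the single rise is 4.35% each time, where 15.2%, 6.65% and 19.0% were called higher. Sec11c, a catalytic subunit of signal peptidase, fell, at -1.08 ± 0.21 in NIC-Prmt1 and -1.32 ± 0.23 in NIC-Prmt6, and the channel subunit gene Sec61g fell by 0.78 ± 0.14 in NIC-Prmt6. Tram1, whose product sits beside the channel, fell by 0.72 ± 0.15 in NIC-Prmt1 (limma adjusted p = 0.00878; adjusted p = 0.0721 without NIC replicate 2). In NIC-Carm1 the calls were Sec62, a channel partner, at -0.28 ± 0.08, and Spcs3, a signal peptidase subunit, at 0.42 ± 0.12 (limma adjusted p = 0.0382 and 0.0389). Both ended on averaging and without NIC replicate 1, replicate 2 or 3 of NIC-Carm1 or either NIC-Prmt6 library, that of Sec62 also without NIC replicate 2 and that of Spcs3 also without NIC-Carm1 replicate 1. The gene that rose in both was Kdelr3, a receptor that returns escaped ER proteins, by 0.77 ± 0.16 and 1.26 ± 0.18. Without NIC replicate 2 the Sec11c call in NIC-Prmt1 ended (adjusted p = 0.0512), and the 8 and 11 falls became 0 and 4. The 8 became 5 without NIC replicate 1, and the 11 became 3 and 6 without NIC-Prmt6 replicates 1 and 2. Of 8 genes of N-glycan transfer, 3 fell in NIC-Prmt1 and 6 in NIC-Prmt6, and 0 rose (0 also at an unadjusted p under 0.05 and by edgeR and DESeq2). That is 37.5% and 75% of the list, where 14.4% and 17.8% of all genes were called lower. In NIC-Prmt1 these were Stt3b and Stt3a, the catalytic subunits of oligosaccharyltransferase, at -0.35 ± 0.09 and -0.32 ± 0.11, and Ostc, a further subunit, at -0.56 ± 0.17 (limma adjusted p = 0.0150, 0.0438 and 0.0318). In NIC-Prmt6 the subunit genes Ddost, Stt3a and Krtcap2 stood at -0.50 ± 0.11, -0.47 ± 0.12 and -0.61 ± 0.15 (limma adjusted p = 0.00658, 0.0113 and 0.0118). Without NIC replicate 2 both counts of falls became 0, and without NIC-Prmt6 replicates 1 and 2 the 6 became 0 and 1. The 3 in NIC-Prmt1 became 1 without NIC-Prmt1 replicate 1 or either NIC-Prmt6 library. In NIC-Carm1 0 of the 8 passed by limma, edgeR or DESeq2, and 0 had an unadjusted p under 0.05 by limma. Averaging left 5 falls in NIC-Prmt1 and 2 in NIC-Prmt6 in the entry list and 0 in the N-glycan list.

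Neighbouring stress programmes also held many falls. In the amino acid stress arm, downstream of ATF4, Chac1, a glutathione-degrading enzyme gene, had log2 fold changes of -4.47 ± 0.30, -4.07 ± 0.30 and -3.63 ± 0.33 in NIC-Prmt1, NIC-Carm1 and NIC-Prmt6, and 5, 7 and 4 of the arm's 10 genes fell (50%, 70% and 40%, where 14.4%, 9.36% and 17.8% of all genes were called lower). Asns, the asparagine synthetase gene, fell, at -1.28 ± 0.13, -0.84 ± 0.13 and -1.24 ± 0.14. Trib3, a pseudokinase gene, fell, at -2.42 ± 0.28 in NIC-Prmt1 and -2.88 ± 0.30 in NIC-Prmt6. All of these calls of Chac1, Asns and Trib3 held in the 21 alternatives. Atf4 itself fell by 0.98 ± 0.17 in NIC-Carm1 (limma adjusted p = 0.00556; adjusted p = 0.0638 on averaging, and the call also ended without NIC replicate 1). The 1 rise in the arm was Atf3 in NIC-Prmt1, at 0.74 ± 0.17 (limma adjusted p = 0.0122), a call that ended on averaging and without NIC replicate 2. Among 12 cytosolic heat shock genes 10, 11 and 8 fell (83.3%, 91.7% and 66.7%), with medians of -0.85, -1.35 and -0.72 against -0.35, -0.11 and -0.56 for the 10 ER genes. Hsph1, the gene of an Hsp70 exchange factor, fell, at -1.61 ± 0.15, -2.18 ± 0.15 and -0.94 ± 0.16 in NIC-Prmt1, NIC-Carm1 and NIC-Prmt6, and the small heat shock protein gene Hspb1 fell, at -1.005 ± 0.157, -2.002 ± 0.157 and -1.17 ± 0.17, and each of these calls held in all 21 alternatives. Hsp90aa1, the stress-induced cytosolic Hsp90 gene, fell, at -1.33 ± 0.17 in NIC-Prmt1 and -0.96 ± 0.18 in NIC-Prmt6, and the latter call ended on averaging. Bag3, a co-chaperone gene, fell by 1.38 ± 0.11 in NIC-Carm1. At an unadjusted p under 0.05, Hsp90aa1 was also lower in NIC-Carm1, and Bag3 in NIC-Prmt1, both against NIC. With averaging the counts became 4, 2 and 3 in the amino acid arm and 8, 8 and 3 in the heat shock list. Without NIC replicate 1 the heat shock counts in NIC-Prmt1 and NIC-Prmt6 were 6 and 4, and the amino acid count in NIC-Carm1 was 4; without NIC-Prmt6 replicates 1 and 2 the heat shock count in NIC-Prmt6 was 4 and 5.

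**Figure D5:**
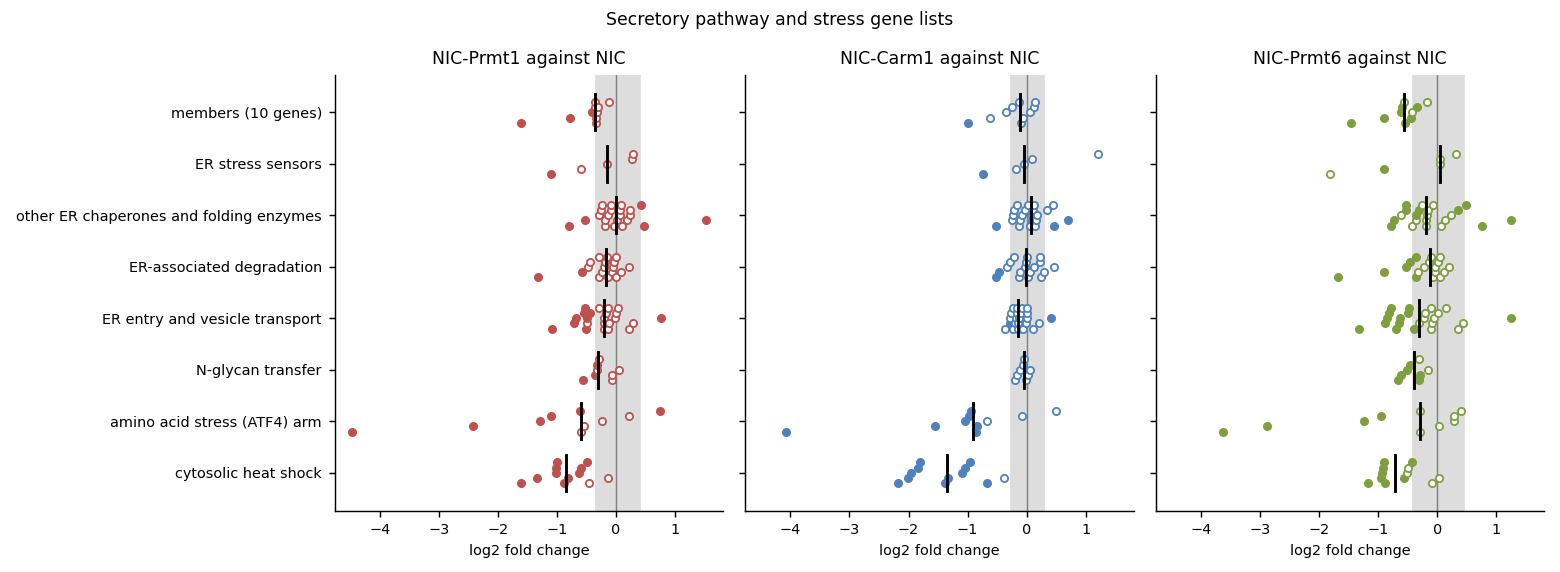
Log2 fold change (horizontal axis) of every tested gene of the ER set and of 7 related gene lists in each methyltransferase genotype against NIC; filled points passed an adjusted p of 0.05, black bars are list medians, and the grey band is the interquartile range of all genes. The ER set lies at medians of -0.35, -0.11 and -0.56, and the heat shock list at -0.85, -1.35 and -0.72.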

How the data were processed

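RNA was measured in 10 libraries from mammary epithelial cells. Per the labels' protocols, poly-A selection and the TruSeq v2 kit were used. The submitters' processing notes name TopHat2 2.0.10, HTSeq 0.6.0, DESeq 1.18.0 and the mm10 build. Annotation, strand setting and filters were not given in the sources used here. The deposited signal is the read count per gene divided by a size factor per library: in each column 100% of the values were whole multiples of 1 read, within a tolerance of 0.01, so reads were recovered (every gene had at least 10 in its highest library).

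Tests used limma 3.58.1 (trend) in R 4.3.3 on log2(value + 1), with all 10 libraries in 1 fit of 4 group means (6 residual degrees of freedom), for 15694 genes (2 or more libraries at 10 or above). Fold changes are on that scale. Benjamini-Hochberg adjustment ran over all genes tested in each of 6 comparisons, and an adjusted p under 0.05 was called. The step was tested on simulated data. The 21 alternatives were edgeR 4.0.16 and DESeq2 1.42.0 on recovered reads, TMM and upper-quartile rescaling, pseudocounts of 0.5 and 5, no filter and a filter at 50, the 2 compared groups alone, a replicate block, averaging of near-identical libraries, and leaving out each library. Averaging leaves NIC-Prmt6 with 1 library, whose spread is taken from the rest.

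The members, the 7 gene lists (98 genes, all in the table) and the 8 marker lists (57 genes) were chosen with earlier results of these data known. All members are named, and from each list and comparison with NIC up to 3 genes with the smallest adjusted p among those called; Dnajc3 in NIC-Prmt6, Atf3, Ern1, Atf6, Hyou1, Manf and the overlapping 1810014B01Rik were named in addition, after their values were seen, as were single marker genes and the methyltransferase genes. Marker sums without Sdc1 or Fabp4 were also chosen after the values were seen. Likeness is Pearson's r with the mean z score of the members, and the 8 highest genes are named. Promoters are RefSeq's (GRCm38.p6), gene positions GENCODE M21's (GRCm38).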

Additional observations from a re-analysis of the deposited data

How the results depend on the processing

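Of the 1260 alternative values of the 60 member results, 1198 kept their direction and side of the threshold where called, 50 called results no longer passed, 12 uncalled results passed, and none changed sign while called in either fit. The members called in NIC-Prmt1 against NIC numbered 2 to 5 lower over the libraries left out singly, in NIC-Carm1 against NIC 1 to 3 lower, and in NIC-Prmt6 against NIC 1 to 9 lower. In NIC-Prmt1 against NIC-Carm1 they numbered 0 to 1 higher, in NIC-Prmt1 against NIC-Prmt6 0 to 2 higher, and in NIC-Carm1 against NIC-Prmt6 1 to 5 higher and 0 to 2 lower. With near-identical libraries averaged, members called lower in NIC-Prmt6 against NIC numbered 0 in place of 7, and in NIC-Carm1 against NIC-Prmt6 0 higher in place of 5 and 0 lower in place of 1; in that setting NIC-Prmt6 has 1 library, so fewer samples carry the comparison. With the 2 groups alone, 1 member was higher in NIC-Prmt1 than in NIC-Prmt6 in place of 0. The cause of the other changes was not tested.

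Replicate numbers did not pair the libraries: in 13 pairs with the same number in different genotypes, deviations from the group means correlated from -0.13 to 0.10. With a replicate block, 6 members in place of 7 were lower in NIC-Prmt6 against NIC (the Pdia4 call ended), and the other member counts did not change. Over all genes, calls of NIC-Carm1 above NIC numbered 632 with the block and 1044 without, and those of NIC-Prmt1 above and below NIC-Prmt6 184 and 387 with it, against 399 and 776. DESeq2 gave 835 and 1298 in that last comparison. With the 2 groups alone, NIC-Prmt1 above and below NIC gave 1564 and 1221 in place of 2387 and 2258, NIC-Carm1 above NIC 568, and NIC-Prmt1 below NIC-Carm1 1145 in place of 1859. Averaging left between 2 and 1423 genes called higher, and between 14 and 1183 lower, in the 6 comparisons, against 399 to 2984 and 776 to 3275. Of the 51 results of list genes taken by smallest adjusted p, 28 kept their call in every alternative. Depth limits none of the members, but 2 or 3 libraries a group limit every test.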
